A study of Mus musculus with 24 samples.

Results

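CDK inhibitors are proteins that hold the cyclin-dependent kinases of G1 in check, and the members described here are the 5 inhibitor genes Cdkn1b, Cdkn2a, Cdkn2b, Cdkn2c and Cdkn2d. They were chosen by symbol, as every probe of the deposited array table annotated to one of these genes, which gave 9 probes among the 25697 probes and 5 genes among the 17872 genes of the table. RNA of CD4+ T cells was measured with 24 arrays of the Illumina MouseRef-8 v2 BeadChip, in cells from WT mice and from mice lacking BAF180, the protein made by Pbrm1 and a subunit of the PBAF chromatin remodelling complex. Each genotype had 3 arrays, labelled A, B and C, in each of 4 states, and 3 arrays per group limit the precision. Resting Naïve cells were CD4+CD62L+ cells taken at 95% purity from spleen and lymph nodes of mice aged 4 to 6 weeks. Stimulated Naïve cells had been held for 24 h on plates coated with antibodies to CD3 (1 µg/ml) and to CD28 (2 µg/ml). Resting Th2 cells had been grown from Naïve cells on the same antibodies with IL-4 at 10 ng/ml and anti-IFN-gamma at 10 µg/ml, with IL-2 at 100 U/ml from 24 h, and were expanded in IL-2 after 3 days. Stimulated Th2 cells were resting Th2 cells given 50 ng/ml PMA with 500 ng/ml ionomycin over 1.5 h. The BAF180-deficient mice carried conditional Pbrm1 alleles deleted by a Cre driven from the CD4 promoter, which acts in T lineage cells from the thymus on, so that other cells in a sample kept the gene. The labels give the strain of all mice as Balb/c, whereas the methods of the study describe another background. A legend of the paper speaks of 3 pairs of WT and BAF180-deficient mice behind the arrays, so the arrays of a group are read as separate mice and the 4 states as repeated measures of the same pairs.

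A resting T cell leaves quiescence when mitogenic signals raise D-type cyclins and lower p27Kip1, the inhibitor made by Cdkn1b that binds complexes of CDK2 and of the D-type cyclins. The Ink4 proteins, made by Cdkn2a (p16Ink4a), Cdkn2b (p15Ink4b), Cdkn2c (p18Ink4c) and Cdkn2d (p19Ink4d), bind CDK4 and CDK6 and so keep the retinoblastoma protein in its growth-restraining form. Cdkn2a also makes p19Arf from another first exon read in another frame, and p19Arf acts on Mdm2, the ligase that degrades p53. In lymphocytes p18Ink4c and p27Kip1 are known as brakes on clonal expansion, while p16Ink4a, p15Ink4b and p19Arf are known for silence in young tissue and for a rise in long culture.

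Cdkn2a and Cdkn2b are neighbours on chromosome 4 (GRCm38.p6, chr4:89274473-89294619 and chr4:89306289-89311032), with 11669 bases between them. Cdkn2c lies apart on the same chromosome (chr4:109660876-109666756), Cdkn1b on chromosome 6 (chr6:134920401-134925525) and Cdkn2d on chromosome 9 (chr9:21288459-21291421). Each probe is 50 bases long, and no probe of another gene shared a run of 16 bases with any of the 9. The probes below lie in coding sequence and are shown, 5′ to 3′ and wholly in lower case, because they fix what was measured: the Cdkn2a probe lies in the first exon used by Arf alone, so it does not read Ink4a RNA.
Cdkn1b: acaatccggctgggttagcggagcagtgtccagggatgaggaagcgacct
Cdkn2a (Arf): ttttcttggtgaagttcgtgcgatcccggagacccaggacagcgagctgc
Cdkn2c: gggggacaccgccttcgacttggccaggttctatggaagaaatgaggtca

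They start at base 921 of the Cdkn1b transcript, base 106 of the Arf transcript and base 633 of the Cdkn2c transcript, by the table's own annotation. The second Cdkn2a probe, at base 644 of the Arf transcript, lies in the 3′ part that Arf and Ink4a RNA share, and is called the shared probe here. The Cdkn2b probe starts at base 1145 and the Cdkn2d probe at base 772 of their transcripts. Cdkn1b had further probes at bases 2809 and 2755, and Cdkn2c had a further probe at base 93.

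The 250 bases upstream of the Arf start and of Cdkn2b, from RefSeq on GRCm38.p6, are shown because the levels of both genes moved together over the arrays. Capitals mark matches, on either strand, to GCGGGAA (E2F), GGGCGG (Sp1) and TGACGTCA (CRE). Both genes are read from the minus strand and the windows are written in the direction of transcription.
Cdkn2a, Arf start, chr4:89294620-89294869: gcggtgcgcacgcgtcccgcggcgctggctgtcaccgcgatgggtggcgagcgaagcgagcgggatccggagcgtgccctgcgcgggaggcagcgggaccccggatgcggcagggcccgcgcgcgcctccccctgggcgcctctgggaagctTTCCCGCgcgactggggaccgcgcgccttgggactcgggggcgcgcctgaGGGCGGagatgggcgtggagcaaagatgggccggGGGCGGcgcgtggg
Cdkn2b, chr4:89311033-89311282: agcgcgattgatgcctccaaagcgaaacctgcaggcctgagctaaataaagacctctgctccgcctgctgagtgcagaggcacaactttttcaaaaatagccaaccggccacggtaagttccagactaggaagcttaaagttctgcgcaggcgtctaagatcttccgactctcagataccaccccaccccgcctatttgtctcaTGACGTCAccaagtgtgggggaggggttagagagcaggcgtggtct

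The Arf window held 40 CpG, more than 98.7% of the 32851 mouse promoter windows of the same length, whose median was 6. It had 1 match to the E2F letters, which 3.82% of all windows hold, and 2 to the Sp1 letters, which 32.7% hold. The Cdkn2b window held 12 CpG and 1 match to the CRE letters, found in 1.55% of all windows. The windows of both genes had no match to AP-1 (TGANTCA), FoxO (GTAAACA), E-box (CACGTG) or CCAAT letters, and the window of the Ink4a start, with 7 CpG, had none of the 7 motifs. A match is a description of these letters only.

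The deposited table gives each probe's intensity without normalization, and a detection p-value that compares it with the negative control probes of its array. Intensities were corrected for background, given an offset of 16, log2 transformed and made comparable by quantile normalization, so a level near 4 is no signal above background and differences of dim probes are understated. A probe was called detected on an array at a detection p of 0.02 or less. Of the 9 member probes, 8 were detected on at least 1 array and entered the tests, among 14246 probes in all. The Cdkn1b probe at base 2755 was detected on 0 of 24 arrays, with intensities from 32.2 to 39.5, and the Cdkn2c probe at base 93 on 2. The Cdkn1b probe at base 921 and the Cdkn2c probe at base 633 were detected on all 24 arrays, and the Cdkn2d probe on 20. Both Cdkn2a probes and the Cdkn2b probe were detected on 14 arrays each, and the Cdkn1b probe at base 2809 on 10. Cdkn2a and Cdkn2b thus entered the tests through the states in which they were high, and a count of members called between states carries that selection.

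The arrays detected 8047 to 10689 probes each. Their median intensities ran from 40.6 to 48.9 and replicate arrays correlated at 0.949 to 0.989. Pbrm1, the deleted gene, lay between 8.14 and 9.06 on the log2 scale over the 12 WT arrays and between 6.36 and 7.88 over the 12 BAF180-deficient arrays, and whether its probe lies in the deleted part was not established. All 5 T cell markers were detected on every array. The Th2 cytokine gene Il4 rose from 6.33 to 7.22 in resting Naïve cells to 13.97 to 14.20 in stimulated Th2 cells. The resting Naïve arrays also carried RNA of blood and myeloid cells. There the summed linear level of 4 measured myeloid markers was 1450 to 4690 in WT and 1640 to 2100 in BAF180-deficient cells, against 80.8 to 119 in the other 6 groups. That of 3 erythroid markers was 348 to 12800 and 3760 to 6020, against 59.0 to 328.

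Cdkn1b was high in both resting states and low in both stimulated states. By the probe at base 921, resting Naïve WT arrays A, B and C gave levels of 8.74, 9.12 and 8.46, and the BAF180-deficient arrays gave 8.32, 8.93 and 8.36. After 24 h on anti-CD3 and anti-CD28 the WT arrays gave 5.95, 5.54 and 5.68, and the BAF180-deficient arrays 5.88, 5.90 and 5.56. All stimulated arrays lay below all resting ones. Groups without overlap were common between states. On stimulation of Naïve cells 48.2% of all probes in WT and 48.1% in BAF180-deficient cells had none, in either direction. In the other state comparisons tested the share ran from 34.6% to 49.6%. The log2 difference was -3.05 ± 0.22 in WT (fitted SE, 3 arrays per group, 8.31-fold lower, limma adjusted p = 9.08e-10) and -2.75 ± 0.22 in BAF180-deficient cells (6.75-fold lower, limma adjusted p = 4.15e-09). In the deposited intensities the WT arrays ran from 186.2 to 278.5 before and from 64.4 to 85.5 after stimulation. Since the samples are bulk RNA, fewer cells of a type and less RNA per cell cannot be told apart. The myeloid and erythroid marker sums given above were lower after stimulation, and so was the sum of 5 B cell markers, at 351 to 792 before and 169 to 233 after in WT and at 359 to 966 and 160 to 248 in BAF180-deficient cells, although the B cell gene Ms4a1 was detected on 1 of these 12 arrays. Their part in the result was not tested.

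Resting Th2 cells stood between these levels. Their WT arrays gave 7.16, 7.48 and 6.98 and their BAF180-deficient arrays 7.37, 7.38 and 6.66, all above every stimulated Naïve array and below every resting Naïve array. Compared with stimulated Naïve cells, Cdkn1b was 2.80-fold higher in WT (log2 1.49 ± 0.22, limma adjusted p = 4.18e-05) and 2.55-fold higher in BAF180-deficient Th2 cells (log2 1.35 ± 0.22). PMA and ionomycin lowered it within 1.5 h to 5.15, 5.39 and 4.83 in WT and 5.47, 5.48 and 5.22 in BAF180-deficient Th2 cells. The log2 difference was -2.08 ± 0.22 (limma adjusted p = 4.28e-07) and -1.74 ± 0.22 (limma adjusted p = 5e-06). By this probe the order of the levels was thus the same in both genotypes, from resting Naïve through resting Th2 and stimulated Naïve to stimulated Th2, and no neighbours in it overlapped. The dim probe at base 2809 was detected on all 6 resting Naïve arrays and on 0 of 6 stimulated Naïve arrays. With mean levels of 5.44 and 4.31 in WT, its resting level was at least 1.72-fold above the stimulated one (limma adjusted p = 3.2e-05), and at least 1.82-fold in BAF180-deficient cells (5.50 and 4.22, limma adjusted p = 7.82e-06). Such a bound sets the bright group's mean against the detection limit of each array of the other group, or the probe's own value where that was higher. Correlation of the probe at base 2809 with that at base 921 was 0.952 over 24 arrays. Its lower states were not set apart in the same way. In WT its resting Th2 arrays overlapped the stimulated Naïve ones, and these overlapped the stimulated Th2 ones. In BAF180-deficient cells its mean was 0.03 higher in stimulated Th2 than in stimulated Naïve cells, with overlap.

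**Figure D1:**
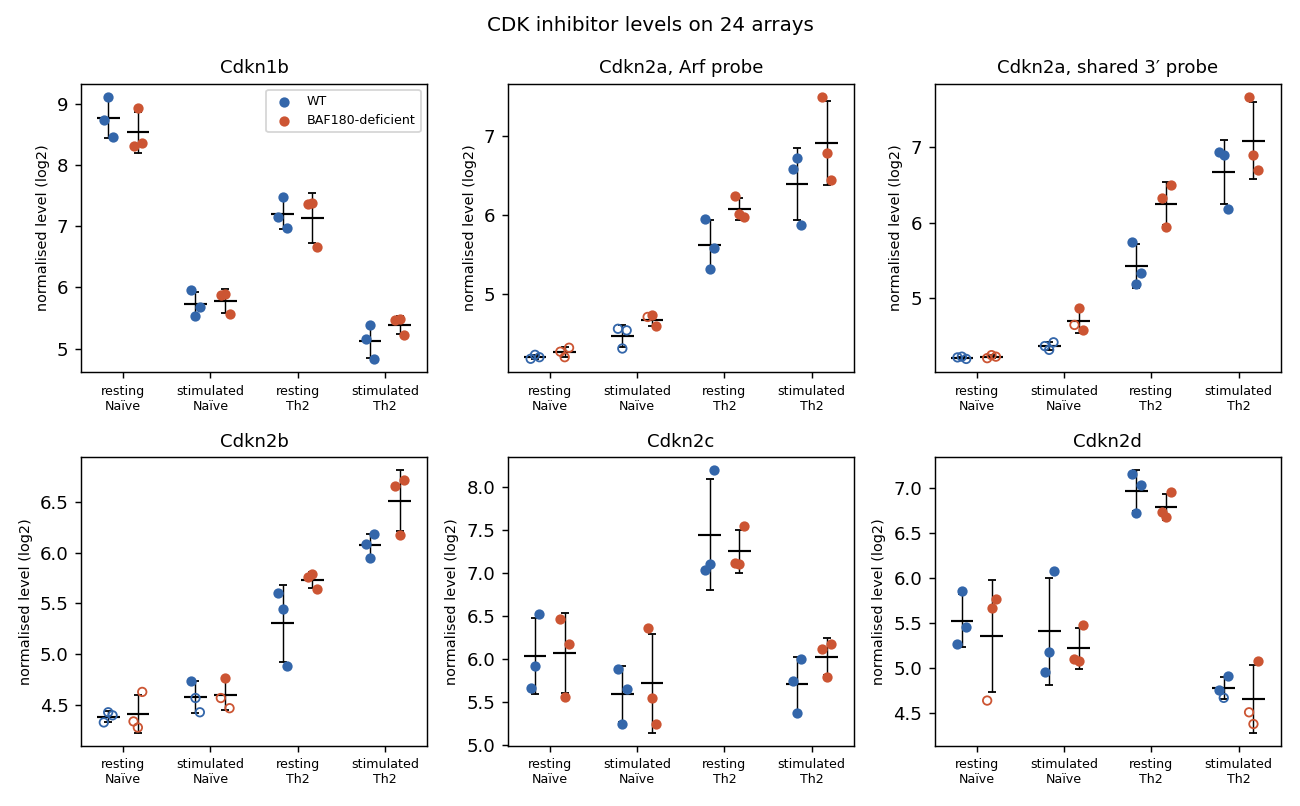
Normalised log2 level (y axis) of each CDK inhibitor on every array, by cell state (x axis) and genotype; points are arrays A, B and C, filled where the probe was detected and open where it was not, and bars are the mean and SD of 3 arrays. Cdkn1b is high in both resting states, Cdkn2a and Cdkn2b in both Th2 states, and Cdkn2c and Cdkn2d in resting Th2 cells.

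Cdkn2a was not detected in resting Naïve cells of either genotype and was detected on all 12 Th2 arrays. The Arf probe gave 4.18, 4.23 and 4.20 in resting Naïve WT cells and 4.27, 4.20 and 4.32 in BAF180-deficient cells. In resting Th2 cells the same probe gave 5.95, 5.32 and 5.58 in WT and 6.24, 6.02 and 5.97 in BAF180-deficient cells. These groups did not overlap. Resting Th2 cells were thereby at least 1.69-fold above resting Naïve cells in WT (log2 difference 1.41 ± 0.22, limma adjusted p = 4.55e-05) and at least 2.40-fold in BAF180-deficient cells (1.81 ± 0.22, limma adjusted p = 2.15e-06). By the shared probe the bounds were 1.48-fold and 2.72-fold, with differences of 1.21 ± 0.22 and 2.03 ± 0.22. Every stimulated Naïve array stood a little above all resting ones of its genotype, where 48.2% of all probes in WT and 48.1% in BAF180-deficient cells had no overlap. The WT levels of stimulated Naïve cells were 4.56, 4.31 and 4.54 by the Arf probe and 4.37, 4.32 and 4.42 by the shared probe, with 0 of 3 arrays detected by either. Among BAF180-deficient arrays they were 4.71, 4.73 and 4.59, and 4.65, 4.87 and 4.58, with 2 of 3 detected by each. The difference from resting Naïve cells did not pass the test in WT (0.15 ± 0.22 by the shared probe, limma adjusted p = 0.623) or in BAF180-deficient cells (0.47 ± 0.22, limma adjusted p = 0.0928). Fitted on the 6 compared arrays alone it passed in BAF180-deficient cells by both probes, with adjusted p of 0.0348 and 0.029.

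Unlike Cdkn1b, Cdkn2a was higher after PMA and ionomycin. The shared probe gave 5.75, 5.19 and 5.34 in resting and 6.94, 6.90 and 6.18 in stimulated WT Th2 cells, a rise of 1.25 ± 0.22 (2.37-fold, limma adjusted p = 0.000174). In BAF180-deficient Th2 cells it gave 6.33, 5.94 and 6.50 at rest and 7.67, 6.90 and 6.70 after stimulation, a rise of 0.84 ± 0.22 (limma adjusted p = 0.00681). The Arf probe rose by 0.78 ± 0.22 in WT and 0.84 ± 0.22 in BAF180-deficient cells. Its WT groups overlapped, at 5.95 against 5.88. Array A of stimulated BAF180-deficient Th2 cells was the highest of all, at 7.67 by the shared and 7.50 by the Arf probe, and without it neither rise passed in that genotype, with 0.55 and 0.54 and adjusted p of 0.0646 and 0.0677. Other single arrays also decided the WT call of the Arf probe (0.0557, 0.0729 and 0.0683 without stimulated array A, stimulated array B or resting array B), and the BAF180-deficient call of the shared probe (0.0502 without resting array B). Fitted on the 6 compared arrays alone, neither rise passed in BAF180-deficient cells (0.0625 by the shared and 0.0546 by the Arf probe), nor did that of the Arf probe in WT (0.0676). Over 24 arrays the probes correlated at 0.989.

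Cdkn2b, the neighbour of Cdkn2a, followed the same order of states. It was not detected on the 6 resting Naïve arrays, at 4.28 to 4.63. Among stimulated Naïve arrays, at 4.43 to 4.77, it was detected on 1 of 3 in each genotype. Resting Th2 cells gave 5.60, 5.44 and 4.88 in WT and 5.76, 5.79 and 5.64 in BAF180-deficient cells. They exceeded resting Naïve cells at least 1.36-fold in WT (log2 0.92 ± 0.17, limma adjusted p = 0.000242) and at least 1.89-fold in BAF180-deficient cells (1.31 ± 0.17, limma adjusted p = 4.51e-06). Stimulated Th2 cells gave 6.08, 5.95 and 6.18 in WT and 6.65, 6.17 and 6.71 in BAF180-deficient cells. The rise over resting Th2 cells was 0.76 ± 0.17 (limma adjusted p = 0.00164) and 0.78 ± 0.17 (limma adjusted p = 0.00146), with no overlap in either genotype. Only the lowest neighbours, stimulated and resting Naïve, overlapped, and their order turned when arrays were scaled by Z-scores.

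**Figure D2:**
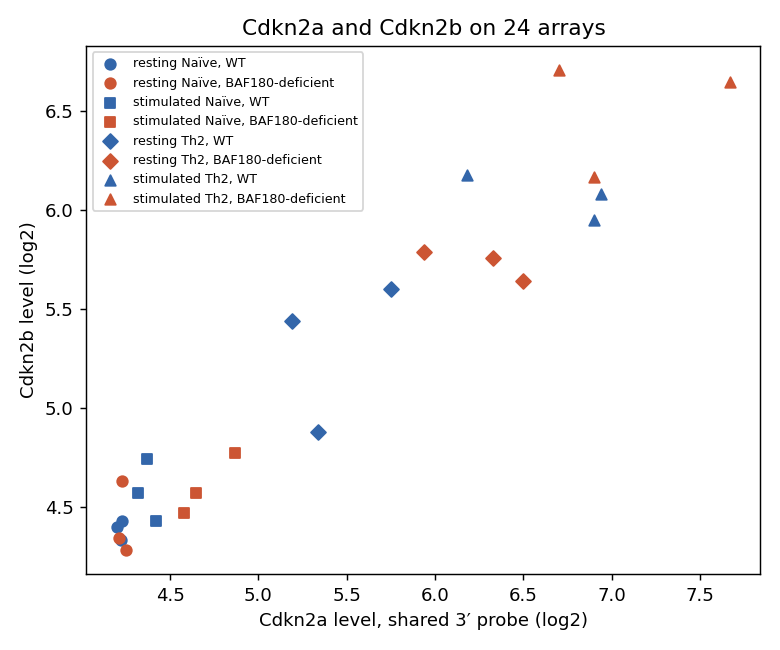
Normalised log2 level of Cdkn2b (y axis) against that of Cdkn2a by its shared probe (x axis) on each of 24 arrays, with a symbol for each cell state and a colour for each genotype. Resting Naïve arrays sit at the lower left, at most 4.63 on both axes, and the stimulated Th2 arrays at the upper right, with r = 0.956 over arrays that fall into 4 states.

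Cdkn2c was highest in resting Th2 cells. The probe at base 633 gave 7.04, 7.11 and 8.19 in WT and 7.12, 7.10 and 7.54 in BAF180-deficient resting Th2 cells. Resting Naïve cells gave 5.66, 5.92 and 6.52 in WT and 6.47, 5.56 and 6.17 in BAF180-deficient cells, and stimulated Naïve cells 5.89, 5.25 and 5.65, and 6.36, 5.55 and 5.25. No resting Th2 array overlapped these. The change on stimulation of Naïve cells did not pass the test, at -0.44 ± 0.32 in WT (limma adjusted p = 0.296; 95% interval -1.11 to 0.23) and -0.35 ± 0.32 in BAF180-deficient cells. Resting Th2 exceeded stimulated Naïve cells by 1.85 ± 0.32 in WT (3.60-fold, limma adjusted p = 0.000226) and by 1.53 ± 0.32 in BAF180-deficient cells (2.89-fold). PMA and ionomycin brought it down to 5.75, 5.37 and 6.00 in WT and 6.12, 5.79 and 6.18 in BAF180-deficient cells. The log2 difference was -1.74 ± 0.32 (limma adjusted p = 0.000293) and -1.22 ± 0.32 (limma adjusted p = 0.00696). Below resting Th2 the other 3 states overlapped as neighbours in both genotypes and have no order beyond their spread.

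Cdkn2d had the same peak. Its resting Th2 levels were 7.15, 6.72 and 7.03 in WT and 6.73, 6.67 and 6.95 in BAF180-deficient cells, above all other states without overlap. Compared with resting Naïve cells, which gave 5.27, 5.85 and 5.46, and 4.64, 5.66 and 5.76, it was higher by 1.44 ± 0.28 in WT (limma adjusted p = 0.000438) and by 1.43 ± 0.28 in BAF180-deficient cells (limma adjusted p = 0.000489). Stimulated Naïve cells gave 4.96, 5.18 and 6.08, and 5.10, 5.08 and 5.48, which overlapped the resting ones. On PMA and ionomycin the level differed by -2.19 ± 0.28 in WT (4.57-fold lower, limma adjusted p = 4.8e-06) and by -2.12 ± 0.28 in BAF180-deficient cells (4.36-fold lower, limma adjusted p = 8.31e-06). The stimulated arrays, at 4.76, 4.67 and 4.91, and at 4.51, 4.38 and 5.08, had the lowest mean of the 4 states. In BAF180-deficient cells they overlapped the resting Naïve arrays, and they did not overlap stimulated Naïve cells of their genotype, by under 0.01 at the closest pair of BAF180-deficient arrays, and 3 of these 6 were detected.

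Counted over the 8 tested probes, 2 passed an adjusted p of 0.05 on stimulation of Naïve cells in WT, where 43.6% of all probes passed, and 2 in BAF180-deficient cells, where 41.6% did. All 4 calls were falls of Cdkn1b. From stimulated Naïve to resting Th2 cells 6 probes rose in WT, against 22.3% of all probes called in either direction, and 6 in BAF180-deficient cells, against 20.5%. On stimulation of Th2 cells 3 rose and 4 fell in WT (27.3% of all probes called), and 3 rose and 3 fell in BAF180-deficient cells (25.8%). Between resting Naïve and resting Th2 cells 5 rose and 2 fell in each genotype, where 34.4% of all probes were called in WT and 34.7% in BAF180-deficient cells. The WT fall of Cdkn1b at base 2809 on stimulation of Th2 cells (-0.50, limma adjusted p = 0.0445) was lost with an offset of 50 (0.125) and without a detection filter (0.0716), on the 6 compared arrays alone (0.0678), and without any one of the WT arrays A, B or C of stimulated or A or B of resting Th2 cells (0.0851 to 0.241). The rise of Cdkn2c from resting Naïve to resting Th2 cells in BAF180-deficient cells was lost without resting Naïve array B (0.93, limma adjusted p = 0.0508). In BAF180-deficient cells the median member difference in these comparisons was -0.09, 1.37, -0.32 and 1.25, where that of all probes was 0.025, -0.016, -0.004 and 0.035. The WT medians of the members had the same signs. These medians carry the selection by detection too, since Cdkn2a and Cdkn2b entered through the states in which they were high. Cdkn1b, Cdkn2a and Cdkn2c also enter them with 2 probes each. The medians of 1.37 and 1.25 thus cannot show a rise of the members as a set.

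**Figure D3:**
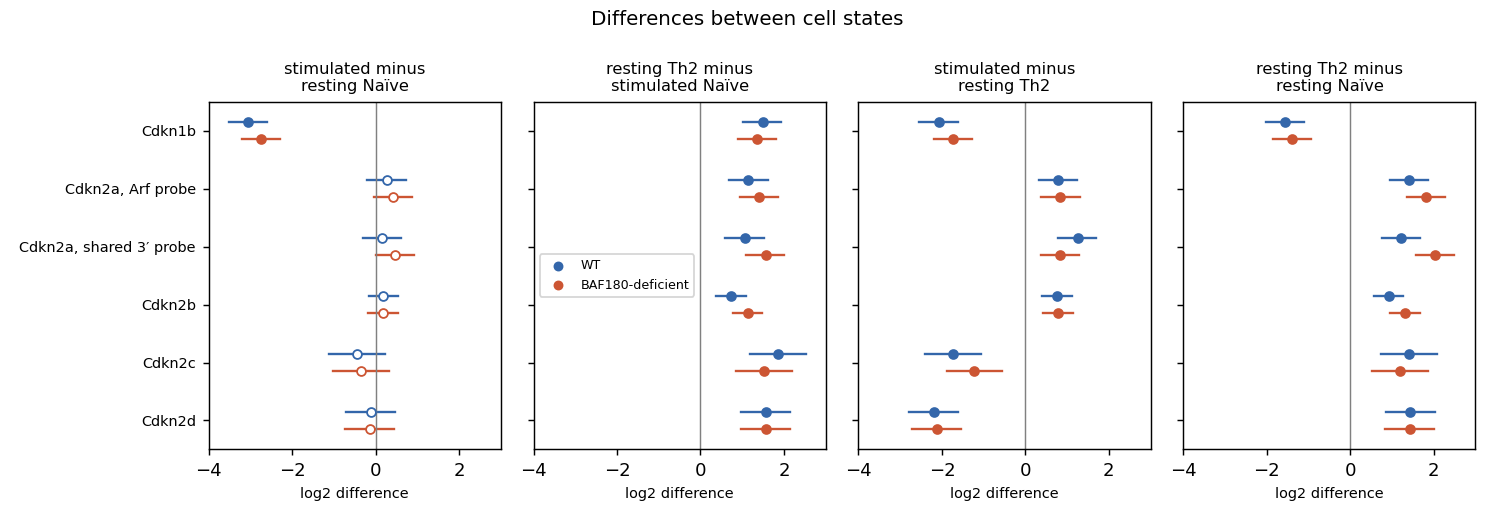
Differences of the normalised log2 level between states (x axis) for the CDK inhibitor probes (y axis) in WT and BAF180-deficient cells, with 95% intervals from the fit and filled points where the adjusted p was under 0.05. Stimulation of Naïve cells shows a called fall for Cdkn1b alone among the probes drawn, and stimulation of Th2 cells shows falls of Cdkn1b, Cdkn2c and Cdkn2d beside rises of Cdkn2a and Cdkn2b.

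The comparison of genotypes asks whether loss of BAF180 alters the inhibitors in T cells, where proliferation was one of the properties the study followed. The paper also measured inhibitor RNA by real-time PCR. In restimulated BAF180-deficient Th2 cells it found Cdkn2b significantly higher, while Arf and Ink4a RNA did not reach significance. From the arrays it lists Cdkn2a among genes apparently held down by BAF180 in Th2 cells. A genotype difference was called by the 4 criteria of the study's methods: a p below 0.05, a false discovery rate below 0.3, a mean signal above 0, and a Z-ratio of more than 1.5 in size, which scales a difference to the SD over all probes. Here p and the rate came from limma. Within single states 0 of 8 member probes met them, where 0.681% of all probes did in resting Naïve, 0.112% in stimulated Naïve, 0.0842% in resting Th2 and 0.0913% in stimulated Th2 cells. At an unadjusted p below 0.05 there were 2 member probes in resting Th2, 2 in stimulated Th2 and 0 in both Naïve states, where 489, 397, 973 (resting Naïve) and 321 (stimulated Naïve) of all 14246 probes had one. On the mean of the 4 states 1 of 8 met the criteria, the shared probe of Cdkn2a, where 2.13% of all probes did, and 3 had an unadjusted p below 0.05, as had 1072 of all probes.

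Cdkn2a was higher in BAF180-deficient cells on the mean of the states, and no single state passed. As a mean of the 4 states the shared probe was 0.40 ± 0.11 higher on the log2 scale (1.32-fold, limma adjusted p = 0.161), which passes the 30% false discovery rate of the methods and would not pass 5%. That fit took all arrays as independent, although the 4 states were read as repeated measures of the same pairs of mice. The Arf probe was 0.31 ± 0.11 higher and did not meet the criteria (limma adjusted p = 0.357). The largest difference of a single state was in resting Th2 cells, where the 3 BAF180-deficient arrays of the shared probe, 5.94 to 6.50, all lay above the WT arrays, 5.19 to 5.75. It was 0.83 ± 0.22 (1.78-fold, 95% interval 0.37 to 1.28, limma adjusted p = 0.465). Of all probes 10.1% had such groups without overlap in resting Th2 cells. The Arf probe differed by 0.46 ± 0.22 there (95% interval -0.00 to 0.92), also without overlap. In stimulated Th2 cells the differences were 0.42 ± 0.22 by the shared and 0.52 ± 0.22 by the Arf probe, with overlapping groups and adjusted p of 1. In stimulated Naïve cells they were 0.33 ± 0.22 and 0.21 ± 0.22, without overlap, as for 6.46% of all probes there, and in resting Naïve cells, where neither group was detected, 0.01 and 0.06. The fitted SE pools the spread of all 8 groups, among them Naïve groups without detected signal. For the shared probe the SD of 3 arrays was 0.43 in WT and 0.51 in BAF180-deficient stimulated Th2 cells. It was 0.05 and 0.15 in stimulated Naïve cells.

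Arrays that share a letter were read as pairs of mice, so that the 12 pairs of arrays are 3 pairs of mice in 4 states. The shared probe of Cdkn2a was higher in the BAF180-deficient array in 11 of 12 pairs, and by 0.58, 0.75 and 1.15 in the resting Th2 pairs A, B and C. How often other probes of the array reach such a count is not given, so the counts of pairs here and below are description only. The 3 pairs of resting Naïve cells (-0.01, 0.02 and 0.03) and stimulated Naïve pair A (0.29) had no detected signal on either array. In stimulated Naïve pairs B and C (0.55 and 0.16) the WT array was not detected. The stimulated Th2 pairs A, B and C differed by 0.73, 0.01 and 0.52. With the letter as a block in each state the resting Th2 difference met the criteria (0.83 ± 0.15, limma adjusted p = 0.0771). It did not with one block for the letter over all states (0.83 ± 0.21, limma adjusted p = 0.319) or with mouse as a random block (0.83 ± 0.22, limma adjusted p = 0.486). On the mean of the states the block in each state let all 3 probes of Cdkn2a and Cdkn2b meet the criteria, with adjusted p of 0.0241 for the shared probe, 0.0671 for the Arf probe and 0.141 for Cdkn2b. This block raised calls over the whole table too, from 304 to 991 probes on the mean and from 12 to 136 in resting Th2 cells. With one block for the letter over all states the shared and Arf probes met them (0.094 and 0.216) and Cdkn2b did not (0.337), with 530 probes called in all. With mouse as a random block the Arf probe (0.499) and Cdkn2b (0.552) did not meet them, and the shared probe did (0.40 ± 0.12, limma adjusted p = 0.249). With an offset of 50 in place of 16 no member probe did, and the shared probe stood at 0.25 ± 0.08 with an adjusted p of 0.307. Left without WT resting Th2 array A, all 3 probes met them, and without either of 2 stimulated BAF180-deficient Th2 arrays, B or C, 2 did.

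Cdkn2b differed in the same direction and did not meet the criteria without the block. It was 0.23 ± 0.08 higher in BAF180-deficient cells on the mean of the states (limma adjusted p = 0.391) and higher in 10 of 12 pairs of arrays. In resting Th2 cells it was 0.42 ± 0.17 higher, with 5.64 to 5.79 above 4.88 to 5.60 in WT, and in stimulated Th2 cells 0.44 ± 0.17 higher, with overlap. In both Naïve states, where most arrays had no detected signal, the differences were 0.04 and 0.02. Some markers of other T cells also had genotype groups without overlap, in resting Th2 cells or in stimulated Naïve cells. In stimulated Naïve cells Cdkn2b itself differed by 0.02 only, so these markers did not follow the inhibitor differences state by state. The summed level of 5 regulatory T cell markers in resting Th2 cells was 1910 to 2550 in WT and 2590 to 3410 in BAF180-deficient cells, and all 5 were detected on every array. Of these 5, Foxp3 (5.75 to 6.14 against 6.55 to 7.34) and Il2ra (7.86 to 8.50 against 8.55 to 8.91) did not overlap, while Tnfrsf18, the brightest, Ctla4 and Ikzf2 did. In stimulated Th2 cells the sums overlapped, at 1460 to 1890 and 1780 to 2090. The sum of 4 naive T cell markers in resting Th2 cells was 1960 to 2350 in WT and 1390 to 1900 in BAF180-deficient cells, with Tcf7 at 6.91 to 7.46 and 5.89 to 6.68. In stimulated Naïve cells Cd8b1, the measured gene of 2 CD8 T cell markers, lay at 7.49 to 8.16 in WT and 6.57 to 7.28 in BAF180-deficient cells. The part of these markers in the Cdkn2a and Cdkn2b differences was not tested.

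Cdkn1b, Cdkn2c and Cdkn2d met the criteria in no state and not on the mean. On the mean of the 4 states Cdkn1b differed by 0.00 ± 0.11 with a 95% interval of -0.23 to 0.23, so that a mean difference beyond 0.23 in either direction lies outside it. Within states its differences were -0.24 and 0.06 in Naïve cells at rest and stimulated, and -0.07 and 0.27 in Th2 cells at rest and stimulated, each ± 0.22. Cdkn2c differed by 0.07 ± 0.16 on the mean (interval -0.26 to 0.41), and by 0.03, 0.12, -0.19 and 0.32 in the same order of states, each ± 0.32. Cdkn2d differed by -0.17 ± 0.14 (interval -0.46 to 0.12), was higher in BAF180-deficient cells in 3 of 12 pairs of arrays, and gave -0.17, -0.19, -0.19 and -0.12, each ± 0.28.

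**Figure D4:**
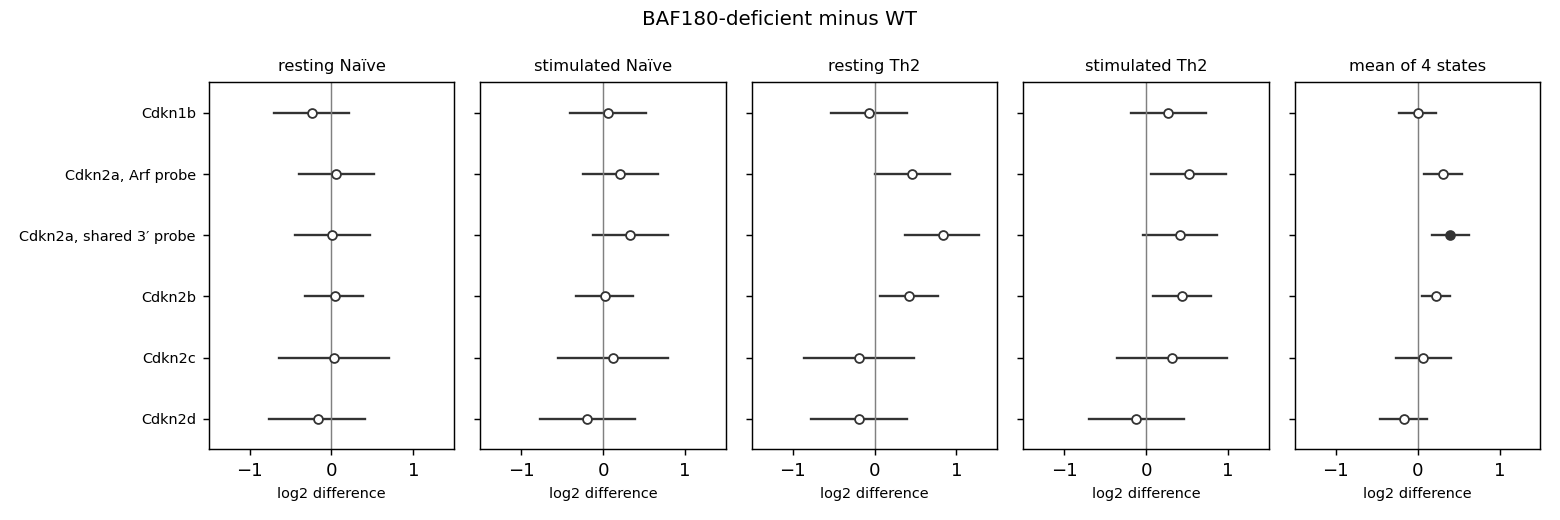
Difference of the normalised log2 level between BAF180-deficient and WT cells (x axis) for the CDK inhibitor probes (y axis) in each state and on the mean of the 4 states, with 95% intervals from the fit and a filled point where the 4 criteria were met. Cdkn2a and Cdkn2b lie to the right of 0 in both Th2 states, and the one filled point is the shared Cdkn2a probe on the mean of the states, at 0.40.

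Whether a change between states differed by genotype was tested as an interaction. At an adjusted p of 0.05 no member probe passed, 0 of 8 for stimulation of Naïve cells (0.00702% of all probes passed), 0 of 8 for stimulation of Th2 cells (0%) and 0 of 8 for resting Th2 against resting Naïve cells (0.00702%). One had an unadjusted p below 0.05, the shared Cdkn2a probe from resting Naïve to resting Th2 cells, whose rise was larger by 0.82 ± 0.31 in BAF180-deficient cells (95% interval 0.17 to 1.46, limma adjusted p = 1).

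The genes around the inhibitors were also compared between states. The myeloid and erythroid marker sums given above were highest in resting Naïve cells. Their part in the differences from resting Naïve cells below was not tested. Of 48 genes listed by role 43 were measured, and on stimulation of Naïve cells 23 rose and 7 fell in WT and 21 and 9 in BAF180-deficient cells, beside 43.6% and 41.6% of all probes called. Among 10 proliferation genes 9 rose in each genotype, led in WT by Cdk1, the kinase of mitosis (2.74 ± 0.29), and Rrm2, the ribonucleotide reductase subunit (2.60 ± 0.49). Cyclins of G1 split, with Ccnd1 at -3.18 ± 0.17 and Ccne1 at 1.88 ± 0.33 in WT. Of the pocket proteins and E2F factors, E2f1 rose by 2.09 ± 0.19 and E2f3 by 1.62 ± 0.20. All 4 measured genes of p27 turnover rose in WT, most of all Cops5, a signalosome subunit (1.62 ± 0.20), and Cul1, the scaffold of the SCF ligase (1.32 ± 0.28), and 2 of 4 in BAF180-deficient cells.

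Among regulators of the Ink4 genes, Ets1, an activator of p16Ink4a, differed by -2.63 ± 0.19 and Cbx7, a Polycomb reader, by -2.24 ± 0.21 on stimulation of WT Naïve cells, where 2 of the 9 rose and 4 fell. Between resting Naïve and resting Th2 WT cells Kdm6b, the demethylase of the Polycomb mark, fell by 2.01 ± 0.28 and Ezh2, the Polycomb methyltransferase, rose by 1.66 ± 0.18. Of the 2 CIP/KIP inhibitors outside the members, Cdkn1a rose there (3.01 ± 0.47 in WT, 2.66 ± 0.47 in BAF180-deficient cells). The other, Cdkn1c, was called lower in WT and was not called in BAF180-deficient cells. On PMA and ionomycin 2 genes of the 43 rose and 14 fell in WT, and 2 and 12 in BAF180-deficient cells, beside 27.3% and 25.8% of all probes called. In WT the differences were -3.51 ± 0.20 for Ccnd3, -2.93 ± 0.30 for E2f2, -1.78 ± 0.28 for Rb1 and 2.77 ± 0.28 for Kdm6b. Of the 10 proliferation genes 5 fell there in WT and 1 in BAF180-deficient cells. Between genotypes 0 of the 43 met the 4 criteria in any state or on the mean.

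By likeness of pattern, as Pearson's r over 24 arrays that fall into 4 states, the genes nearest to Cdkn1b were Txnip (0.978), Accs (0.977) and Gab3 (0.976). Nearest to Cdkn2a by its shared probe were Cyp11a1 (0.957), Cdkn2b (0.956) and Il24 (0.944), and nearest to Cdkn2b were Il24 (0.960), Cyp11a1 (0.956) and Cdkn2a (0.956). Those of Cdkn2c were Tmem43 (0.920), Acot11 (0.906) and Fam20a (0.896), and those of Cdkn2d were Bbs9 (0.903), E2f2 (0.898) and Arhgap1 (0.896). Among the members Cdkn2c and Cdkn2d correlated at 0.736, Cdkn2a and Cdkn2d at -0.103, and Cdkn1b and Cdkn2a at -0.560.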

How the data were processed

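Total RNA of each sample was labelled and hybridized to 24 Illumina MouseRef-8 v2 BeadChip arrays. The authors deposited, per the file headers, the average bead intensity of each probe from GenomeStudio (version 1.6.0 in the submitters' processing notes), not normalized and with its background, beside a detection p-value of each probe on each array. The authors' Z-score step had not been applied to these deposited values. Here neqc of limma 3.58.1 in R 4.3.3 inferred the background from the detection p-values, added an offset of 16, took log2 and applied quantile normalization over the arrays. Probes were kept where any array had a detection p of 0.02 or less, which left 14246. One mean per group, 8 in all, was fitted over the 24 arrays (lmFit, eBayes, 16 residual degrees of freedom), with Benjamini-Hochberg adjustment across those probes. The methods' filter for consistent signal has no stated definition and was left out, as were their own Z-score p and significance analysis of microarrays. Genes with several probes are described by the probe with the highest mean level, beside the second probes of Cdkn2a and Cdkn1b. Current symbols came from RefSeq (GRCm38.p6). The probe coordinates in the table are of a build not given in the sources used here and were not used.

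The members, the pathway and marker lists and the tests were chosen with earlier results of these data known. The named pathway genes are the largest called differences of a role, and the like genes the nearest 3. Whether letters A, B and C mark pairs was checked by correlating the deviations of same-letter arrays from their group means. Over all states together it came to 0.301 (A), 0.136 (B) and 0.516 (C), and 2 of the 12 values of single states did not exceed 0.1. In the fit with mouse as a random block, arrays of the same letter and genotype had a consensus correlation of 0.0412 over all probes. A legend of the paper speaks of pairs of mice, so letters were read as pairs, the unpaired model was reported first and the block given beside it where it changed a call. Alternatives were Z-score scaling, no background correction, an offset of 50, no detection filter, fits or normalization on the compared arrays, blocks for letter or mouse, and leaving out each array.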

Additional observations from a re-analysis of the deposited data

Results flagged for a closer look

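By the Cdkn1b probe at base 921, same-letter pairs differed in opposite directions in different states. The level was lower in the BAF180-deficient array in all 3 pairs of resting Naïve cells (mean difference -0.24 on the log2 scale) and higher in all 3 pairs of stimulated Th2 cells (0.27). This difference between the states was not tested. Each of these differences alone failed its test. The dimmer Cdkn1b probe at base 2809 did not follow: its pairs A, B and C gave 0.01, 0.26 and -0.10 in resting Naïve cells and 0.12, -0.04 and 0.09 in stimulated Th2 cells.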

How the results depend on the processing

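Most alternatives left a result on its side of the threshold. On the mean of the states 1 member probe met the genotype criteria. This count was 0 with an offset of 50, 2 with the replicate block over all states and 3 with the replicate block within the state, and it ran from 1 to 3 when single arrays were left out. In resting Th2 cells the replicate block within the state gave 1. The letters thus change these counts, and the block changed no other count of member probes between genotypes by more than 1.5 times. Without the resting Naïve arrays, a choice made after seeing the data, the count stayed at 1 and the shared Cdkn2a probe stood at 0.53 ± 0.14. Fitted on 6 arrays only, stimulation of BAF180-deficient Naïve cells gave 4 called member probes in place of 2, while stimulation of Th2 cells lost the rises of both Cdkn2a probes in BAF180-deficient cells (adjusted p of 0.0546 and 0.0625) and, in WT, the rise of the Arf probe (0.0676) and the fall of Cdkn1b at base 2809 (0.0678). Z-score scaling turned small differences that had not passed: Cdkn2b between genotypes in resting Naïve cells (-0.01) and on stimulation of Naïve cells (-0.04 in WT, -0.02 in BAF180-deficient cells), and Cdkn1b between genotypes in resting Th2 cells (0.02). Leaving out 1 array turned others that had not passed. Between genotypes in resting Naïve cells the ranges were -0.07 to 0.10 for Cdkn2b, -0.17 to 0.29 for Cdkn2c and -0.37 to 0.19 for Cdkn2d. In stimulated Naïve cells they were -0.03 to 0.18 for Cdkn1b, -0.06 to 0.10 for Cdkn2b, -0.20 to 0.36 for Cdkn2c and -0.41 to 0.15 for Cdkn2d. In resting Th2 cells they were -0.19 to 0.17 for Cdkn1b and -0.40 to 0.18 for Cdkn2c, in stimulated Th2 cells -0.33 to 0.02 for Cdkn2d, and on the mean of the states -0.01 to 0.16 for Cdkn2c. On stimulation of Naïve cells Cdkn2d ran from -0.46 to 0.10 in WT and from -0.49 to 0.07 in BAF180-deficient cells. The cause of these changes was not tested. A block for the chip was not run, since the chip of each array is not given in the sources used here. Signal over background limits Cdkn2a and Cdkn2b in Naïve cells, where few arrays detected them.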
